A study of Mus musculus with 27 samples.

Results

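The 71 genes described here were bright in a wild-type line of mouse embryonic fibroblasts and at background in both other lines of the same series. They were selected from 18193 genes, each read by its brightest probe set. The limits were a geometric mean intensity of at least 500 over the 9 wild-type arrays, and of at most 50 over the 9 arrays of each other line. A further 13 genes met these limits and were set aside by name, among them Akt1, Upk3b, Upk1b, Aldh1a1, Grb10 and Ptgis. Because the rule used the levels in the 3 lines, those levels are given as a description and without a test. The tests concern differences between conditions inside the wild-type line, genes next to the members, relatives of the members and marker lists.

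The series holds 27 Affymetrix arrays from 3 lines of female embryonic fibroblasts at passage 45. One line was wild type for PKBalpha, the protein kinase encoded by Akt1, and one was the PKBa -/- knockout. The third, called the line labelled R here, was a knockout described by its labels as having PKBalpha put back. Each line was grown in 10% serum and harvested without irradiation, or 4 h or 24 h after a gamma dose of 10 Gy. The series' design text gives 3 biological replicates a group, numbered 0, 1 and 2. All groups thus share the culture and the passage. Since each genotype is 1 line, p values speak of replicates of a line and not of different lines of a genotype. Akt1 read 3549 in the wild-type line, 21.5 in the knockout and 21.0 in the line labelled R, so the transcript read by this probe set was not restored in that line. In bulk RNA of this kind, fewer cells of a type and less RNA per cell cannot be told apart.

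Several of the members are textbook genes of the mesothelium. This is the cell layer that lines the pleural, pericardial and peritoneal cavities and covers the organs in them. Mesothelial cells arise from mesoderm, carry epithelial features such as tight junctions and apical polarity, and also express mesenchymal genes. The transcription factor Wt1, the retinoic acid synthase Aldh1a2 and the surface proteins mesothelin (Msln) and Muc16 are used to recognise them. Cultures of embryonic fibroblasts are made from minced embryos and can hold several mesodermal cell types.

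Promoter sequence could be set beside these genes for 56 of the 71 members, which have 72 windows of 300 bases (250 before to 50 after the start) in RefSeq's GRCm38.p6 annotation. The following are shown because Lrrn4 was the brightest member, Inmt was the member with the largest change after irradiation, and Bnc1 carries a dense CpG stretch. Capitals mark GGAATG, the core bound by TEAD factors, in Lrrn4 and TATAAA, the TATA box, in Inmt, and in Bnc1 none of the 5 motifs searched occurred. The windows are chr2:132880813-132881112, minus strand (Lrrn4), chr6:55174941-55175240, minus strand (Inmt), and chr7:81992250-81992549, minus strand (Bnc1), each written from 5′ to 3′ along the gene.
Lrrn4: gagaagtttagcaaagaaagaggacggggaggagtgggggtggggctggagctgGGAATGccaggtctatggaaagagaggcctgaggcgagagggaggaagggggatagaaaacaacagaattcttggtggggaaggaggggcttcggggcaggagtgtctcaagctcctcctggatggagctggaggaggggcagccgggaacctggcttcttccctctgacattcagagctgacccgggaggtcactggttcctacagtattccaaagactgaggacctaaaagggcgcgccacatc
Inmt: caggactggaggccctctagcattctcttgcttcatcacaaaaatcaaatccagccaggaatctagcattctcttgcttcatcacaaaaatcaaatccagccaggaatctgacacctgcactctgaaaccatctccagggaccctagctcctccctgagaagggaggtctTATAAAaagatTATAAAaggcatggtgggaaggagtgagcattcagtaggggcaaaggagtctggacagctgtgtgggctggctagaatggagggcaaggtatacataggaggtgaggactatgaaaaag
Bnc1: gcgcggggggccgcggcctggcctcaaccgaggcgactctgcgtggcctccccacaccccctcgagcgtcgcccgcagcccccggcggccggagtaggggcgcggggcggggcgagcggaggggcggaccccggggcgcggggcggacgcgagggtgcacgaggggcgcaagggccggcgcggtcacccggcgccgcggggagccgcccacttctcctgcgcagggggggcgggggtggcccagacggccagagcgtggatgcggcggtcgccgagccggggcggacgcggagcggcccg
The Lrrn4 window had a GC content of 58% and 1 GGAATG, 196 bases before the start. The Inmt window had a GC content of 47.7%, no CpG dinucleotide, and TATAAA 80 and 69 bases before the start. The Bnc1 window had a GC content of 83.3% and an observed over expected CpG ratio of 0.98.

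As a group, the members' windows were poorer in CpG than those of other genes that were bright in the wild-type line. The median observed over expected CpG ratio was 0.56 over the members' 72 windows, 0.80 over 6913 windows of other genes at 500 or more in the wild-type line, and 0.38 over all 32851 windows. A ratio of 0.6 or more was reached by 47.2% of the members' windows, 77.9% of the windows of the other bright genes and 35.8% of all windows. Motifs were searched on both strands, and none of them contains another. GGAATG was present in 13.9% of the members' windows, 14.7% of all windows and 11.8% of those of the other bright genes. In the same order, AGATAA (the core of GATA factors) was present in 9.72%, 11.2% and 5.38%, and GCGTGGG (the core of WT1 and EGR factors) in 4.17%, 5.04% and 8.22%. TATAAA was present in 13.9%, 13.6% and 6.77%, and CCAAT in 31.9%, 37.4% and 37.0%. The members' shares were thus near or below those of all windows, and above those of the other bright genes for the TEAD and GATA cores and the TATA box. A match is a description of the letters only.

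The members ranged from 502 to 5986 in the wild-type line, with a median of 882; 29 lay at 1000 or more and 14 at 2000 or more. Their means ran from 3.59 to 46.9 in the knockout (median 17.5) and from 2.48 to 48.1 in the line labelled R (median 17.7). A background level of 48.3 was taken as the highest of 243 readings of 9 probe sets of Y-linked genes, which female cells lack. Of 639 member readings in each of these lines, 78 lay above background in the knockout and 61 in the line labelled R. The highest were 91.9 in the knockout and 128.8 in the line labelled R (Mbp, 24 h). The lowest reading of any member on a wild-type array was 98.0. For all 71 members each wild-type array lay above each array of both other lines, which the limits of the rule made likely in advance. The share of all genes that did so was not computed. By another measure, a test of each line alone (limma, adjusted p under 0.05), 17.5% of all genes were called lower in the knockout. In the line labelled R 16% were, and the rule used the levels behind both contrasts. Against the background level the wild-type means were at least 10.4-fold to at least 124-fold higher, with a median bound of 18.2-fold. For 31 members no array of the knockout or the line labelled R rose above background, for 25 between 1 and 3 arrays did, and for 15 more than 3 did.

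**Figure D1:**
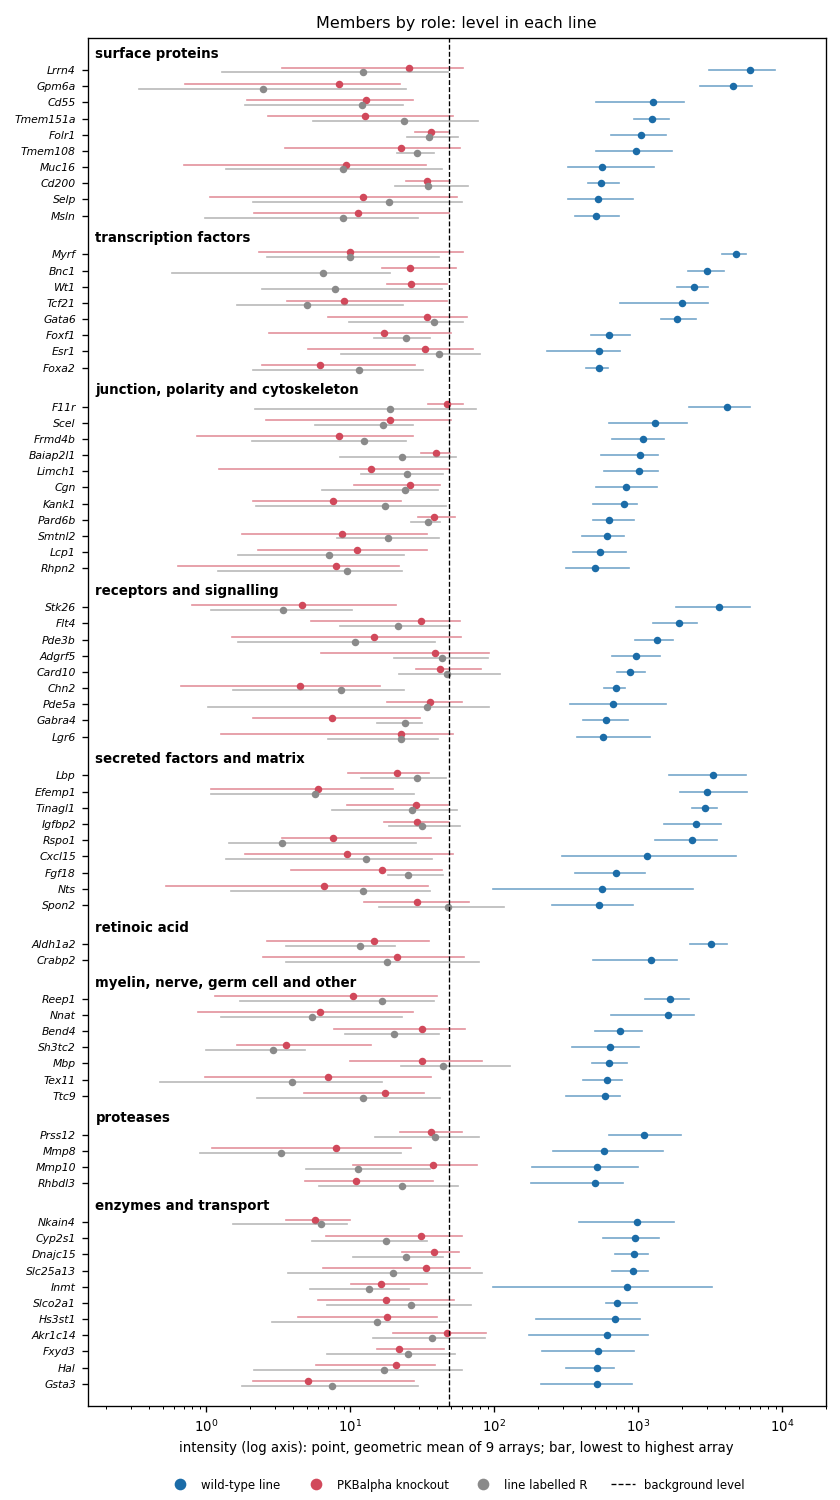
Level of each of the 71 members, grouped by role, as the geometric mean intensity of 9 arrays per line (points) with the lowest and highest array (bars) on a log axis; the dashed line is the background level of 48.3. All wild-type bars lie to the right of the bars of the knockout and of the line labelled R. The limits of the rule made this likely in advance.

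The opposite pattern was rarer: 13 genes read at 500 or more in both other lines and at 50 or less in the wild-type line, against the 71 members and the 13 set aside by name in the direction described here. No gene met the limits in the knockout alone or in the line labelled R alone. Near the wild-type limit, Rhpn2 (502), Rhbdl3 (502) and Msln (510) were the nearest inside, and Prr15l (497), Pcp4l1 (486), Bex1 (483), Dapk1 (482) and Zfp185 (481) the nearest outside. Near the low limit, Spon2 (48.1 in the line labelled R), Akr1c14 (46.9 in the knockout) and F11r (46.9 in the knockout) lay just inside. Just outside it were Parm1 (50.03 in the knockout), Ildr2 (54.02 in the knockout), Chchd10 (60.2 in the line labelled R), Tgm2 (62.7 in the knockout) and Pbxip1 (65.5 in the knockout).

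Second probe sets gave the same picture wherever they read a signal, but they were not independent of the rule. Each was dimmer over the 27 arrays than the probe set kept, which was itself at 50 or less in both other lines. Low readings there were thus largely set in advance. In the wild-type line some were brighter than the probe set kept, namely for Frmd4b (1764 against 1072), Pard6b (813 against 627) and Selp (673 against 526). There were 55 further single-symbol probe sets for 36 of the members, and the other 35 members had 1. Of these, 44 probe sets of 31 members read above background in the wild-type line, and all 44 were at or under background in both other lines, with highest means of 34.7 in the knockout and 37.8 in the line labelled R. Of the 44, 8 reached 500 in the wild-type line, while some were near background there (Esr1 49.6, Mbp 50.2 and Spon2 53.7). The remaining 11 of the 55 were under background there too. They measure the same RNA on the same arrays, so they bear on the probes and not on the lines.

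Transcription factors made up 8 of the members. Myrf, a membrane-tethered factor best known for switching on myelin genes, was the brightest of them. It read 5627, 4954 and 5054 in untreated wild-type cells, 4133, 3786 and 5053 at 4 h, and 4724, 4926 and 4817 at 24 h, against means of 10.0 in the knockout and 9.89 in the line labelled R. The 3 wild-type groups overlapped, and the whole wild-type range spanned 1.49-fold. Bnc1, a zinc finger factor of basal keratinocytes, germ cells and mesothelium, read 3516, 2970 and 2479 untreated, 2362, 2216 and 3747 at 4 h, and 3028, 3924 and 3317 at 24 h. Wt1, the zinc finger factor of kidney, gonad and mesothelium, read 3072, 2584 and 2005 untreated, 2172, 1865 and 2717 at 4 h, and 2563, 2896 and 2368 at 24 h. Neither gene separated the wild-type groups. Their means in the knockout (26.2 and 26.6) and in the line labelled R (6.5 and 7.85) were all under background, where levels have no order.

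Tcf21, a basic helix-loop-helix factor of visceral mesenchyme, had a mean of 2011 and was lowest in replicate 2 of the untreated cells (750). Gata6, a zinc finger factor of heart and endoderm, had a mean of 1868. Foxf1, a forkhead factor of splanchnic mesoderm, read 649, 726 and 466 untreated, 877, 634 and 471 at 4 h, and 821, 507 and 619 at 24 h, a mean of 626 against 17.2 in the knockout and 24.3 in the line labelled R. Foxa2, a forkhead factor of endoderm and its derivatives, read 548, 500 and 479 untreated, 602, 436 and 546 at 4 h, and 570.5, 513 and 619 at 24 h, a mean of 532 against 6.15 and 11.5. For both forkhead genes the 3 conditions overlapped. Esr1, the oestrogen receptor alpha, had a mean of 537 with readings of 672 to 737 untreated, 232 to 504 at 4 h and 593 to 752 at 24 h, so that its 4 h arrays lay below all others.

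Among 10 surface proteins, the brightest were Lrrn4, a leucine-rich repeat protein, and Gpm6a, a glycoprotein of the neuronal membrane that is also used as a mesothelial marker. Lrrn4 read 8959, 7107 and 7415 untreated, 3105, 4868 and 5158 at 4 h, and 5868, 6769 and 6748 at 24 h. Its 4 h arrays were all below the rest. Gpm6a read 5881, 4556 and 4133 untreated, 2682, 3570 and 4904 at 4 h, and 4744, 6151 and 5218 at 24 h, with overlapping groups for untreated and 4 h cells. Muc16, the large mucin that carries the CA-125 antigen, had a mean of 559, and its binding partner Msln a mean of 510. They did not vary alike. Muc16 was 816, 574 and 1292 untreated, 391, 326 and 345 at 4 h, and 468, 653 and 660 at 24 h, while Msln was 466, 363 and 663 untreated, 733, 513 and 512 at 4 h, and 400, 499 and 536 at 24 h.

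The other surface proteins were the folate receptor Folr1 (1051), the complement regulator Cd55 (1262), the immune checkpoint ligand Cd200 (555), P-selectin (Selp, 526), Tmem151a (1252) and Tmem108 (961). Cd55 read 1764, 1696 and 1131 untreated, 512, 972 and 991 at 4 h, and 1483, 2063 and 1587 at 24 h, so the 4 h arrays were the 3 lowest. Cd200 read 634, 513 and 468 untreated, 449, 498 and 581 at 4 h, and 544, 733 and 630 at 24 h, and its groups overlapped. Tmem108 read 1728, 1136 and 1141 untreated, 508, 603 and 847 at 4 h, and 858, 1196 and 1175 at 24 h. Tmem151a, which shares only the letters of the symbol with it, read 1360, 1301 and 1630, then 1120, 936 and 1472, then 993, 1197 and 1434, and overlapped between conditions.

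Genes of junctions, polarity and the cytoskeleton numbered 11. F11r, the tight junction protein JAM-A, was the brightest with 5485, 5021 and 3134 untreated, 2238, 3254 and 4348 at 4 h, and 4410, 5270 and 5951 at 24 h. The 24 h arrays were all above the 4 h arrays, and the untreated arrays overlapped with both. The tight junction adaptor cingulin (Cgn) had a mean of 825, the polarity adaptor Pard6b 627, the actin regulators Baiap2l1 1037, Limch1 1011 and Kank1 802, and the leukocyte actin bundler Lcp1 542. The remaining 4 were Scel, a precursor of the cornified envelope (1313), Frmd4b (1072), Smtnl2 (609) and Rhpn2 (502). Of 10 markers of simple epithelia none reached 500 in any line; 3 were called lower in the knockout, and 2 lower and 1 higher in the line labelled R. The keratins Krt8 (79.3 in the wild-type line, 24.5 in the knockout, 22.8 in the line labelled R) and Krt18 (45.5, 17.7 and 14.1) were lower in both. Krt18 was, however, under background in all 3 lines. Krt19 went the other way (51.4, 71.4 and 84.0) and was called higher in the line labelled R and not in the knockout. Cdh1 (22.3 in the wild-type line) was also under background in all lines, and Epcam read 59.0, 67.7 and 64.4. Keratin genes were kept out of the members by name, among them Krt14 (758, 6.01 and 5.93).

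Secreted factors and matrix proteins numbered 9. Lbp, which hands bacterial lipopolysaccharide to its receptor complex, read 4052, 5644 and 4303 untreated, 1701, 1623 and 2138 at 4 h, and 5222, 3774 and 3958 at 24 h. Its 4 h arrays lay below all others without overlap. Efemp1, the matrix protein fibulin-3, read 1956, 4118 and 2392 untreated, 2923, 2529 and 2905 at 4 h, and 5680, 3844 and 2044 at 24 h, so that its replicates differed more than its conditions. Tinagl1, a matrix glycoprotein, read 3403, 2384 and 2975 untreated, 3527, 3181 and 2567 at 4 h, and 2363, 2840 and 3312 at 24 h, with full overlap. Igfbp2, which binds insulin-like growth factors, read 3744, 3357 and 1512 untreated, 2743, 1633 and 2088 at 4 h, and 2331, 2880 and 3319 at 24 h.

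Rspo1, which amplifies Wnt signals through Lgr receptors, was a member together with one of those receptors, Lgr6. Rspo1 read 2999, 2830 and 3539 untreated, 1305, 1737 and 1859 at 4 h, and 2577, 2426 and 2792 at 24 h, and its 3 groups did not overlap. Lgr6 read 738, 376 and 1212 untreated, 432, 545 and 511 at 4 h, and 419, 639 and 587 at 24 h, and its groups overlapped. The growth factor Fgf18 had a mean of 702, the chemokine Cxcl15 1145, neurotensin (Nts) 563 and the matrix protein Spon2 538. Retinoic acid was represented by the enzyme that makes it, Aldh1a2 (4141, 3538 and 2713 untreated, 2422, 2281 and 3554 at 4 h, 3327, 3847 and 3525 at 24 h), and by its binding protein Crabp2 (1249, 1785 and 1490 untreated, 998, 740 and 483 at 4 h, 1850, 1491 and 1796 at 24 h). Crabp2 was lower at 4 h on all 3 arrays, while the groups of Aldh1a2 overlapped.

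Receptors and signalling proteins numbered 9, led by the Ste20-type kinase Stk26 (5297, 3807 and 2557 untreated, 1835, 1958 and 4616 at 4 h, 3801, 5930 and 5468 at 24 h). Its means of 4.63 in the knockout and 3.43 in the line labelled R were both under background. Flt4, the receptor for VEGF-C known from lymphatic endothelium, had a mean of 1921. The other members of this class were the adhesion receptor Adgrf5 (964), the NF-kappaB adaptor Card10 (882), the Rac regulator Chn2 (700), the GABA receptor subunit Gabra4 (599) and the cyclic nucleotide phosphodiesterases Pde3b and Pde5a. Pde3b read 1176, 1430 and 946 untreated, 1753, 1173 and 1190 at 4 h, and 1755, 1678 and 1285 at 24 h. Pde5a, which degrades cyclic GMP, read 490, 1494 and 1114, then 356, 335 and 638, then 1556, 663 and 436, a wider spread inside the groups than Pde3b.

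The 11 enzymes and transport proteins were Nkain4, Cyp2s1, Dnajc15, Slc25a13, Inmt, Slco2a1, Hs3st1, Akr1c14, Fxyd3, Hal and Gsta3, from 986 (Nkain4) to 515 (Gsta3). They include the mitochondrial aspartate and glutamate carrier Slc25a13, the prostaglandin transporter Slco2a1 and the histidine ammonia-lyase Hal. The 4 proteases were neurotrypsin (Prss12, 1092), the neutrophil collagenase Mmp8 (574), stromelysin-2 (Mmp10, 517) and the rhomboid Rhbdl3 (502). The last 7 members were grouped as genes of myelin, nerve, germ cells and other roles. They include myelin basic protein (Mbp, 630), the Schwann cell gene Sh3tc2 (633) and the imprinted gene neuronatin (Nnat, 1605). The others were the endoplasmic reticulum shaping protein Reep1 (1673), the meiotic gene Tex11 (609), Ttc9 (590) and Bend4 (752).

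The label of the cells was set against marker lists. Of 9 measured fibroblast genes, 8 read at 500 or more in each of the 3 lines, and the summed level of the list was 86200 to 106549 on wild-type arrays, 84314 to 105428 on knockout arrays and 76865 to 107367 on arrays of the line labelled R. Single genes of the list differed: 3 were lower and 3 higher in the knockout, and 4 lower and 3 higher in the line labelled R. Decorin (Dcn) read 11510, 3466 and 1055 in the wild-type line, the knockout and the line labelled R, and Thy1 1973, 11378 and 6035. All 10 genes of the mesothelial list used here read at 500 or more in the wild-type line and none did in the other lines. Their summed levels were 26193 to 48877, 275 to 425 and 155 to 422. That list holds no keratin. Krt8, Krt18 and Krt19 were read with the epithelial list, at 79.3, 45.5 and 51.4 in the wild-type line. Of the 10 listed genes, 7 are members and Upk3b was set aside by name, so only Cldn15 and Pdpn could be tested. Both were lower in both lines (adjusted p of 2.20e-12 or less, limma). The list was chosen with earlier results of these data known, so these p values are no independent check. Cldn15, a tight junction claudin, read 1877, 54.2 and 74.4 in the wild-type line, the knockout and the line labelled R, and Pdpn, podoplanin, 2439, 119 and 30.6. Both lines were compared with the same wild-type arrays.

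**Figure D2:**
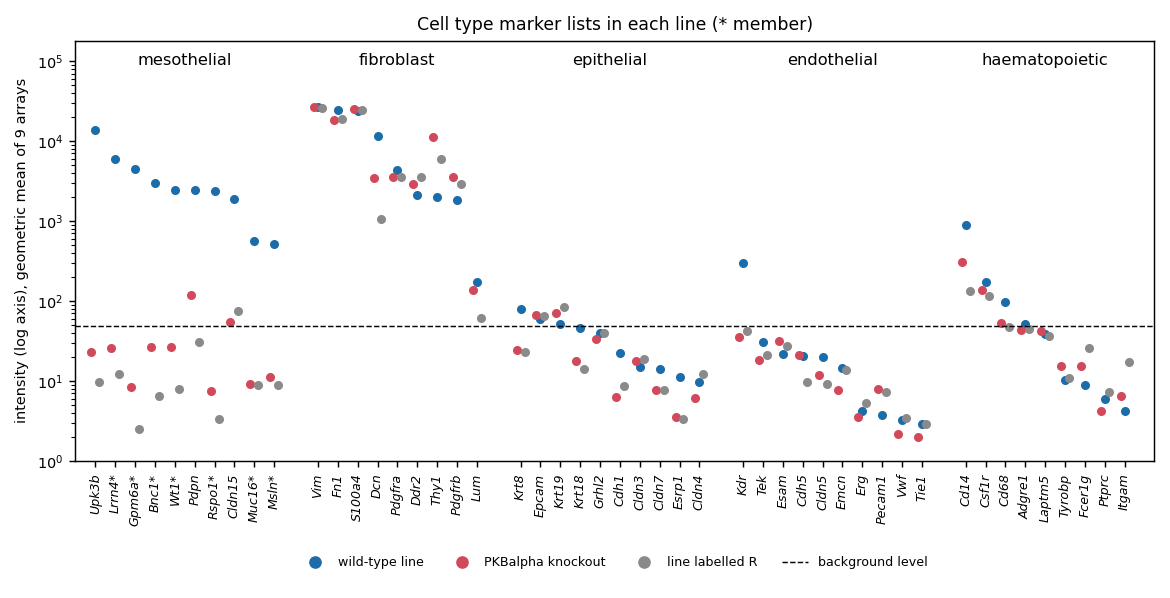
Geometric mean intensity over the 9 arrays of each line (log axis) for 5 marker lists, with members starred and the background level of 48.3 dashed. Of the 10 mesothelial genes, 7 are members and Upk3b, which has no star, met the same limits, so their separation was set by the rule. The other 2, Cldn15 and Pdpn, were also lower in both other lines, and the lists were chosen with earlier results of these data known. Of 9 fibroblast markers, 8 lie at 500 or more in all 3 lines.

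Markers of endothelial, haematopoietic, germ and neural cells were mostly at background in the wild-type line. Of 10 endothelial genes only Kdr (300 against 35.1 in the knockout and 42.5 in the line labelled R) read above background, while Cdh5 (20.4) and Pecam1 (3.74) did not, so Flt4 and Selp stood without the defining endothelial markers. Of 9 haematopoietic genes, Ptprc read 6.0, and 4 read above background, the brightest being Cd14 with 886, 306 and 133. Of 10 germ cell genes only Ddx4 did so (362 against 12.8 and 33.8), and of 8 neural and glial genes 2 did. In other lists the counts above background were alike in the 3 lines. Of 10 smooth muscle genes 6, 7 and 6 read above background in the wild-type line, the knockout and the line labelled R. Of 10 skeletal muscle genes 2, 3 and 2 did so. The counts were 3, 3 and 3 of 8 cartilage and bone genes and 3, 4 and 3 of 8 adipocyte genes. Summed levels were nevertheless higher on wild-type arrays for the adipocyte list (12682 to 24205, 5256 to 9574 and 3991 to 7717). Most of that sum was 1 gene, Lpl (17405, 6463 and 5348). Lpl and Fabp4 were called lower in both other lines, while Pparg and Cebpa were called higher in the knockout. For the haematopoietic list the sums were 1075 to 1801, 550 to 798 and 358 to 553. For the endothelial list they were 307 to 766, 115 to 220 and 145 to 213. Neural and glial sums were lower on wild-type arrays (352 to 509, 756 to 1116 and 766 to 1478). The part of any such cells in the members' levels was not tested.

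Position and lineage factors of mesenchyme differed in both directions. Besides the members Gata6, Foxf1 and Tcf21, 35 factors were measured; 10 (28.6%) were lower and 12 (34.3%) higher in the knockout, against 17.5% and 15.5% of all genes. In the line labelled R, 9 (25.7%) were lower and 11 (31.4%) higher, against 16% and 18.1%. The median difference from the wild-type line was 0.38 and 0.27 (log2), against -0.02 and 0.04 over all genes. Gata4, the partner of Gata6, read 278, 11.3 and 15.1, Alx1 61.7, 5.22 and 2.56, Tbx3 137, 14.6 and 16.8, and Six2 158, 26.4 and 25.2. The reverse held for Zic1 (5.46, 2787 and 2270), Tbx15 (234, 666 and 856) and Foxd1 (90.4, 317 and 444). All 7 of these were past an adjusted p of 0.05 (limma, Benjamini-Hochberg over 18193 genes) in both lines.

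The members were spread over the genome, with 7 each on chromosomes 2 and 5, 6 each on 1, 7 and 9, and the rest over 15 other chromosomes. Mmp8 and Mmp10 were the only members with no other RefSeq gene measured between them. Mmp8 read 463, 1326 and 606 untreated, 255, 275 and 343 at 4 h, and 1484, 690 and 736 at 24 h, and Mmp10 read 351, 886 and 483, then 814, 182 and 312, then 991, 569 and 678. In the same gene cluster Mmp3 (5116, 1357 and 116) and Mmp13 (695, 132 and 14.4) were lower in both lines. Not all Mmp genes followed: Mmp7, a neighbour of Mmp8, read 24.4, 18.4 and 9.52 and was called in neither line. Mmp1a, Mmp1b, Mmp12 and Mmp20 were also called in neither and lay under background in all lines.

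The 2 nearest measured genes on each side of every member gave 278 genes that are no members. Of these, 59 (21.2%) were lower and 28 (10.1%) higher in the knockout, against 17.5% and 15.5% of all genes. In the line labelled R, 59 (21.2%) were lower and 33 (11.9%) higher, against 16% and 18.1%. At least 4-fold lower were 20 (7.19%) in the knockout and 23 (8.27%) in the line labelled R, against 4% and 3.89% of all genes. The median difference of the neighbours was -0.12 in the knockout and -0.03 in the line labelled R, against -0.02 and 0.04 over all genes. Most neighbours of members were thus not called.

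Because many readings lay under background, neighbours called in the same direction in both lines were ranked, after the data had been seen, with such readings set to the background level, by the smaller of the folds in the 2 lines. Tgm2, transglutaminase 2, which lies beside Lbp, came first. It read 7888 in the wild-type line, 62.7 in the knockout and 39.7 in the line labelled R, 126-fold and at least 163-fold lower. Lgals2 beside Card10 read 988, 54.6 and 80.9, and Tuft1 beside Cgn 2411, 221 and 286. Dock8 beside Kank1 (273 in the wild-type line), Ptprv beside Lgr6 (269), Bmp2 beside Lrrn4 (252), Akr1c18 beside Akr1c14 (232) and Wt1os, the antisense transcript of Wt1 (230), were at background in both other lines, at least 5.65-fold to at least 4.76-fold lower. Fendrr, a long noncoding RNA divergent from Foxf1, read 191 and was at least 3.96-fold lower in both. By fitted differences alone the first 8 also held Alx1 beside Nts (61.7 in the wild-type line), Gm15527 beside Chn2 (58.3) and Map3k9 beside Ttc9 (127), whose wild-type levels lay at most 2.63-fold above background, so the size of their difference is only known to that bound. The Akr1c genes are close relatives in sequence, so their probe sets may share transcripts, and the same holds for Wt1 and its antisense transcript.

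Of 1152 genes that share the letter stem of a member's symbol, many of them unrelated by descent, 216 (18.8%) were lower and 145 (12.6%) higher in the knockout, and 180 (15.6%) lower and 180 (15.6%) higher in the line labelled R. Over all genes these shares were 17.5% and 15.5%, and 16% and 18.1%. At least 4-fold lower were 5.30% and 5.64% of the relatives, against 4% and 3.89% of all genes. Single relatives differed widely. Crabp1 read 1403, 133 and 9.38, Igfbp4 9722, 466 and 208, and Igfbp3 5456, 534 and 63.5, in the order wild-type line, knockout, line labelled R, while Slc5a7 was higher in both other lines (14.2, 776 and 1649). Igfbp6 read 3098, 225 and 114, and Slc38a4 was higher in both other lines (241, 2870 and 3355). With readings under background set to that level, Igfbp4 came first, by the smaller of its folds, among the relatives called the same way in both lines, 20.8-fold in the knockout and 46.7-fold in the line labelled R. Pde9a read 124, 3.74 and 4.16, and Slc22a14 109, 3.18 and 4.70, with both low lines under background. Rspo2 ran opposite to Rspo1, at 181, 2059 and 3779. Foxf2 (128, 14.3 and 19.1) followed Foxf1, and Foxa1 (69.3, 67.8 and 8.72) was called lower in the line labelled R and not in the knockout, a difference between the lines that was not tested.

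After irradiation of the wild-type line most members read lower at 4 h and near their untreated level at 24 h. These groups rest on the sample titles, since the descriptions call all irradiated wild-type samples untreated. The labels do not say when untreated cells were harvested, so radiation and time in culture cannot be told apart. With limma, 1 member was called lower and none higher at 4 h against untreated (adjusted p below 0.05), and 7 had an unadjusted p below 0.05; over all genes 3.25% were called, 1.74% lower and 1.51% higher. The member was Inmt, the indolethylamine N-methyltransferase, which methylates tryptamine. It read 3270, 996 and 3252 untreated, 98.2, 233 and 644 at 4 h, and 528, 1480 and 1661 at 24 h. All 3 arrays at 4 h lay below the untreated ones, and the replicates differed widely in each condition. The difference was -3.16 ± 0.73 (SE, log2; adjusted p = 0.0225), and over 19 alternatives the adjusted p ran from 0.0045 to 0.341. Without the 5 arrays that the Gapdh control ratio sets apart, it was -2.22 (adjusted p = 0.199).

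Below the threshold, 52 of the 71 members had a negative difference at 4 h (73.2%), against 47.0% of the 6537 other genes at 500 or more in the wild-type line. The median difference was -0.39 for the members, 0.02 for those other genes and -0.01 for all genes. For 24 members (33.8%) all 3 arrays at 4 h lay below all 3 untreated arrays and for 1 above; over all genes 10.8% lay below and 10.3% above. Relative to each gene's mean in the line, the members' median log2 level was 0.23, 0.14 and 0.01 on the untreated arrays, -0.36, -0.39 and -0.09 on the 4 h arrays and 0.07, 0.25 and 0.23 on the 24 h arrays. The lowest untreated array (replicate 2) and 1 of the 2 lowest at 4 h (replicate 0) are among the 5 set apart by the Gapdh ratio, and without the 5 the median was -0.41.

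At 24 h, against untreated cells, 0 were called by limma (1 at an unadjusted p below 0.05, and 0 in each alternative), with 0.0495% of all genes called. The median difference was 0.08, and 45 of 71 were positive. All 24 h arrays lay below all untreated arrays for 5 members and above them for 1, against 8.09% and 7.68% of all genes. Against 4 h, 0 were called (7 at an unadjusted p below 0.05, and 0 to 9 in the alternatives), with 2.6% of all genes called. Of the members, 62 had a positive difference (median 0.54, against -0.03 for the other bright genes), and for 25 all 24 h arrays lay above all 4 h arrays, against 12.3% of all genes; for 0 they lay below, against 11.1%. Both comparisons use the 4 h arrays, so the lower readings at 4 h and the higher readings at 24 h are not independent.

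**Figure D3:**
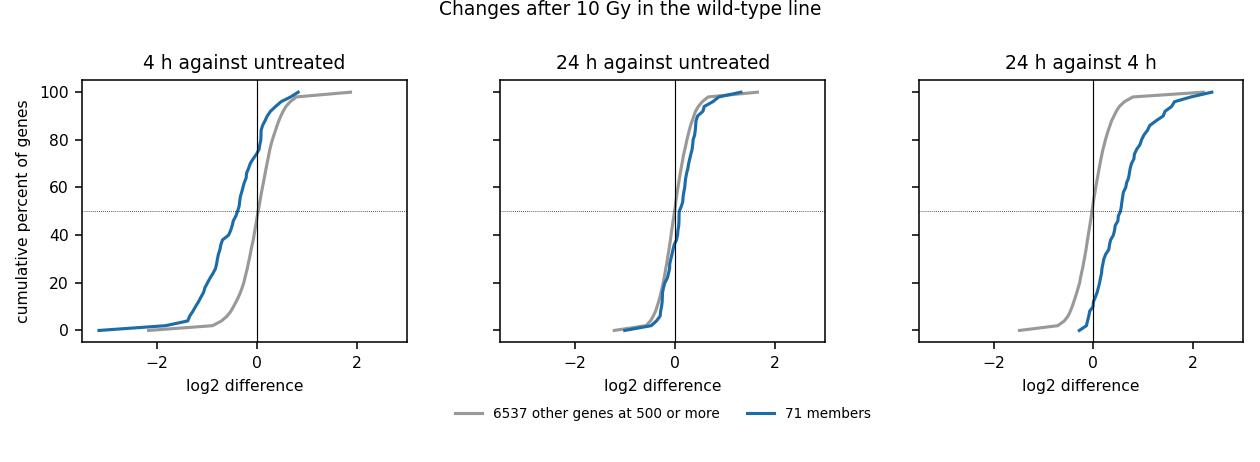
Cumulative percent of genes against the log2 difference between conditions in the wild-type line, for the 71 members and the 6537 other genes at 500 or more there. The members' curve lies left of the others at 4 h against untreated (median -0.39 against 0.02), close to it at 24 h against untreated (0.08 against -0.01), and right of it at 24 h against 4 h (0.54 against -0.03).

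Over the 3 wild-type groups, 50 members (70.4%) were lowest at 4 h, against 32.5% of the other bright genes. The highest group was 24 h for 42 members, untreated for 22 and 4 h for 7. The ratio of the highest to the lowest group had a median of 1.57 for the members and 1.27 for the others, and it exceeded 2 for 19 members (26.8%) against 2.60% of the others. For 10 members it was under 1.2. The members were also more variable between replicates, with a median SD of 0.34 (log2) inside the wild-type groups against 0.21 for the other bright genes.

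The number of calls depended on the settings of the fit, and the reason was not tested. In the knockout and the line labelled R, where the members lie under background, their median SD was 1.18 and 1.00, and it exceeded the wild-type SD for 63 and 64 of the 71 members. A fit on the 9 wild-type arrays alone with an intensity trend in the variance, added after the data had been seen, called 13 members lower and 0 higher at 4 h, with 1.29% of all genes called lower and 0.951% higher. These were Lrrn4, Lbp, Rspo1, Flt4, Crabp2, Adgrf5, Tmem108, Inmt, Fgf18, Muc16, Spon2, Fxyd3 and Rhbdl3. It called 5 members higher at 24 h than at 4 h (Lbp, Crabp2, Nkain4, Spon2 and Fxyd3), with 0.484% of all genes called higher. The same fit without the trend called 0 in both comparisons, so these calls rest on borrowing the spread from genes of like intensity. With all 27 arrays and an offset of 16 added before the logarithm, which damps low readings, 9 members were called lower at 4 h (2.01% of all genes) and 8 higher at 24 h than at 4 h (1.63% of all genes).

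In the fit on the 9 wild-type arrays with the intensity trend, Fxyd3, a regulator of the sodium pump, differed by -1.49 ± 0.25 at 4 h (adjusted p = 0.0213) and Lbp by -1.35 ± 0.17 (adjusted p = 0.0135). Fxyd3 read 909, 710 and 596 untreated, 218, 216 and 370 at 4 h, and 656, 786 and 931 at 24 h. Spon2 read 541, 818 and 663, then 300.1, 252 and 327, then 921, 801 and 698, a difference of -1.19 ± 0.20 at 4 h (adjusted p = 0.0213) and of 1.46 ± 0.20 from 4 h to 24 h (adjusted p = 0.0206). For these 3 genes the 4 h arrays did not overlap with either other group. Fgf18 read 1116, 813 and 1041, then 366, 395 and 507, then 635, 931 and 1010. Flt4 read 2526, 2259 and 2553, then 1266, 1298 and 1714, then 2017, 1946 and 2215, and its 24 h arrays lay between the other groups. Flt4, Fgf18 and the next 3 genes had all 4 h arrays below all others. Adgrf5 read 1052, 1250 and 1425, then 768, 688 and 658, then 1152, 953 and 1004. Rhbdl3, of the rhomboid protease family, read 709, 788 and 694, then 257, 179 and 499.7, then 626, 558 and 649. Nkain4, which interacts with the sodium pump, read 1531, 1341 and 832, then 389, 663 and 652, then 1166, 1494 and 1766.

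**Figure D4:**
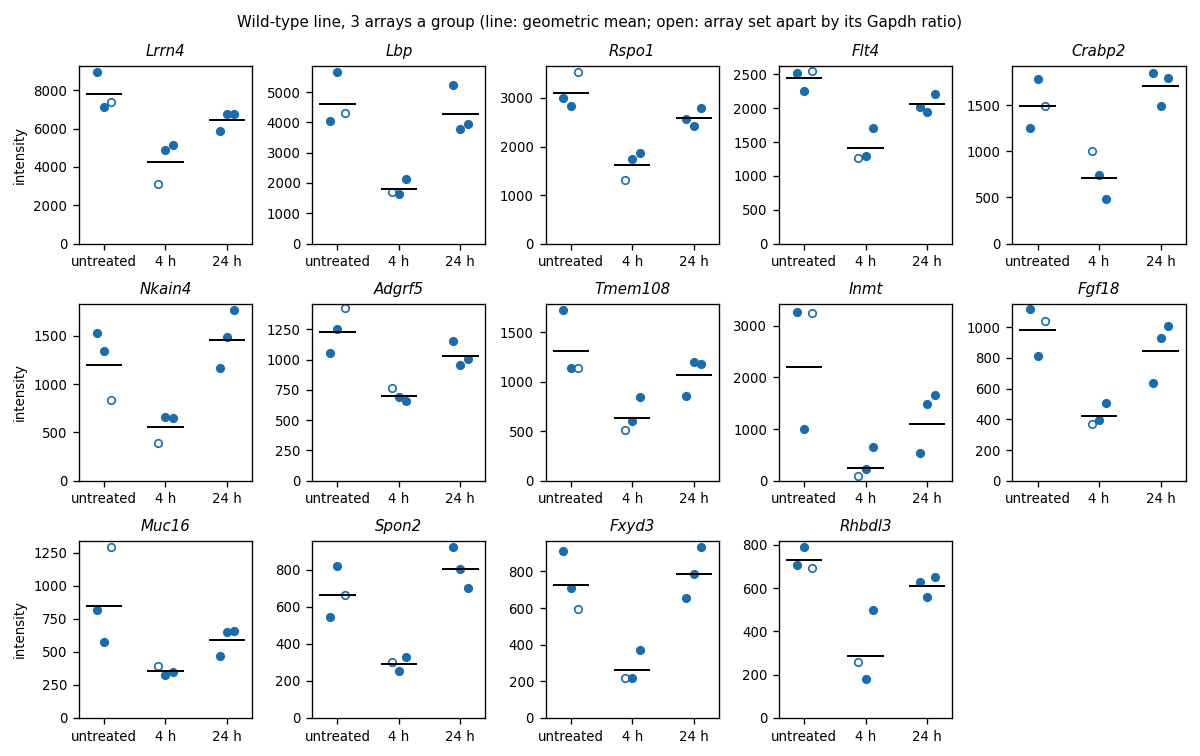
Intensity on each of the 9 wild-type arrays (points; open where the Gapdh ratio sets the array apart) with the geometric mean of each group (line) for the 14 members called in at least 1 comparison by the fit on wild-type arrays with an intensity trend. In each panel the 4 h mean is the lowest of the 3 groups.

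A few members varied together between replicates, a pattern noticed after their values had been seen. Replicate 1 of the untreated cells and replicate 0 at 24 h were the 2 highest wild-type arrays for 11 members (15.5%), against 3.72% of the other bright genes. The pair most often highest was untreated replicates 0 and 2, with 12 members. The 11 were Lbp, Efemp1, Tcf21, Cxcl15, Pde5a, Mmp8, Nts, Lcp1, Spon2, Selp and Mmp10. For Nts both arrays read 2418 and 2414, against 98.0 to 707 on the other 7. Cxcl15, a chemokine of lung epithelium that attracts neutrophils, read 4787 and 4674 on them, against 295 to 1535. Selp, an adhesion receptor for leukocytes, read 861 and 919, against 328 to 563. Both arrays were at least 1.5-fold above the other 7 for 4 members (Nts, Cxcl15, Mmp8 and Selp) and for 4 of the 6537 other bright genes, which were the neutrophil chemokines Cxcl5 and Ppbp, and Nsg1 and Emb. Neither array is among those set apart by the Gapdh ratio.

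Other members read low on single arrays. Replicate 2 of the untreated cells, set apart by that ratio, was the lowest wild-type array for 15 members (21.1%) and for 29.9% of the other bright genes. Hs3st1, a heparan sulfate sulfotransferase, read 195 there against 684 to 1028 on the other 8 arrays. Akr1c14, a hydroxysteroid dehydrogenase, read 175 against 390 to 1166. In contrast, replicates 0 and 1 at 4 h were the lowest arrays for 23 (32.4%) and 19 (26.8%) of the members, and for 12.3% and 7.71% of the other bright genes.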

How the data were processed

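Messenger RNA was measured on 27 Affymetrix arrays of 9 groups. The deposited table gives intensity on a linear scale for 45101 probe sets, and the authors' scaling set the mean without the top and bottom 2% of values to 500 on every array. RMA and GCRMA appear in the submitters' processing notes with neither role nor version, and the summary method is not given in the sources used here. The titles set the groups, since all 6 irradiated wild-type samples are untreated by their descriptions. Every comparison of conditions in the wild-type line thus rests on the titles. The number of arrays limits the precision, and low intensities are the least precise.

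The log2 of each value was used without an offset, and the brightest of the probe sets with 1 symbol stood for a gene. Of 45101 probe sets, 34945 carried 1 symbol, 932 several and 9160 none, and 64 were controls. Differences were tested with limma 3.58.1 (R 4.3.3; 9 group means, 18 residual and 1.39 prior degrees of freedom), two-sided, with Benjamini-Hochberg adjustment over 18193 genes at 0.05. The script was tested on simulated data. On 5 arrays the log2 ratio of the 3′ to the 5′ Gapdh control was -0.19 to 0.16, against -0.47 to -0.30 on the other 22, with a limit of -0.25: wild-type untreated replicate 2 and 4 h replicate 0, knockout untreated replicate 2, and untreated replicate 1 and 24 h replicate 2 of the line labelled R. Between 10577 and 11682 genes per array lay above background.

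The members, the lists, the roles and the motifs were chosen with earlier results of these data known. Members named in full were those called after irradiation, the 12 brightest, the 3 nearest each limit with 5 genes outside it, and members that share a symbol stem or adjoin each other; of other genes, up to 8 neighbours and 8 relatives with the largest differences and Akt1, with a second ranking, added later, that sets readings under background to that level. Further genes were named after their values had been seen. Replicate numbers were checked for pairing over 108 pairs of arrays with 1 number; their deviations had a median correlation of 0.04 (lowest -0.78, highest 0.83). For 14 of 27 arrays the mean correlation was highest with arrays of their own number. Since not every pair was above 0.1, the numbers were not taken to pair the arrays. Alternatives were a replicate block, the compared arrays only, an intensity trend, genes above background, quantile and median scaling, the mean of all probe sets, an offset of 16, leaving out the 5 arrays or each array in turn, and other limits for the members.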

Additional observations from a re-analysis of the deposited data

How the results depend on the processing

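The member rule gave 71 genes as applied, 145 with a wild-type limit of 250, 29 with a limit of 1000, and 15 when every single array had to meet the limits; under the other alternatives it gave 53 to 81, and 65 to 75 when each array was left out in turn. The mean of all probe sets gave 53 genes, of which 47 are among the 71. The count of members called at 4 h against untreated moved from 1 to 0 with the compared arrays only, without the 5 arrays, with the 9 wild-type arrays alone, and with those 9 and a replicate block. It was 9 with an offset of 16, 13 with the 9 wild-type arrays and an intensity trend, and 9 with that trend without the 5 arrays. Leaving out each array gave 0 to 1, with 0 without untreated replicates 0 or 2 or 4 h replicates 0 or 1; the difference of Inmt stayed negative throughout and was smallest, at -2.22, without the 5 arrays. At 24 h against 4 h the count of 0 became 8 with the offset, 1 without the 5 arrays, 5 with the wild-type arrays and the trend, 9 with that trend without the 5 arrays, and 0 to 1 when each array was left out. At 24 h against untreated it was 0 in each alternative run. A replicate block in the fit of all 27 arrays left the counts at 1, 0 and 0. The members' median difference was negative at 4 h in each alternative (-0.54 to -0.26) and positive at 24 h against 4 h (0.43 to 0.67). Over all genes the calls ran from 0 to 942 at 4 h, 0 to 23 at 24 h against untreated, and 0 to 747 at 24 h against 4 h, against 592, 9 and 473 as reported. The count of neighbours called in either direction was 75 to 93 in the knockout and 81 to 95 in the line labelled R. The cause of these shifts was not tested. The limits are 3 arrays a group, 1 line a genotype, and readings under background in which levels have no order.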
